A study of Mus musculus with 192 samples.

Results

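The transcripts described here come from 10 genes that code for proteins of neutrophil granules and cytosol, namely Mpo, Elane, Ngp, Camp, Ltf, Lcn2, Mmp8, S100a8, S100a9 and Retnlg. They were chosen by gene symbol, with earlier results of these data known, and make up 10 of the 54752 genes in the table. RNA was measured by sequencing in 9 mouse tissues and 192 samples, of which 184 samples from 23 mice were used. A gene was tested in a tissue only where its counts passed a filter on low values, which 34 of the 90 pairs of gene and tissue did. These were 10 in temporal bone (TpB), 10 in spleen (Spl), 6 in thymus (Thy), 3 in mandibular bone (MdB), 2 in epididymal white fat (eWAT), 1 each in liver (Liv), interscapular brown fat (iBAT) and kidney (Kid), and 0 in cerebrum (Cbr).

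The mice were males, labelled C57BL/6 (a C57BL/6J background in the study's methods), with a labelled age of 12 weeks, either WT or Nrf2KO, the latter lacking functional Nrf2 in every cell. Nrf2 is a transcription factor encoded by Nfe2l2. The groups were GC_WT and GC_KO, WT and Nrf2KO mice under the condition Ground_control, and FL_WT and FL_KO, WT and Nrf2KO mice under the condition Flight. Each had 6 mice, apart from FL_KO with 5, and MdB and Kid were taken from 3 mice a group, with 2 in FL_KO for MdB. Flown mice spent about a month on the International Space Station and were dissected in the days after return. The study's methods give 12 weeks as the age when mice were ready for transport. Flown mice were thus older than the labelled age at dissection. Ground mice were kept in the same type of cage at another site and a later date, so flight cannot be told apart from site and date. Nrf2KO mice were selected for the absence of an intrahepatic shunt. One flown Nrf2KO mouse, FL04, had a severe intestinal haemorrhage and was left out of every value below unless it is named.

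Neutrophils are short-lived white cells made in bone marrow. Their granules are filled in order as the cells mature. Azurophil granules come first and carry myeloperoxidase (Mpo) and neutrophil elastase (Elane). Specific granules follow and carry lactoferrin (Ltf), lipocalin 2 (Lcn2), the cathelicidin precursor (Camp), neutrophilic granule protein (Ngp) and neutrophil collagenase (Mmp8). S100a8 and S100a9 form calprotectin, an abundant cytosolic metal-binding complex, and Retnlg codes for a resistin-like protein of late neutrophils. Transcripts of granule proteins are therefore known as markers of immature neutrophils in marrow, while calprotectin transcripts persist in circulating cells. In bulk tissue, fewer cells of a type and less RNA per cell cannot be told apart.

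Several of these genes share a chromosome in the mouse genome (GRCm38, GENCODE annotation). Camp (109847379 to 109849617, minus strand), Ngp (110419747 to 110423012, plus strand) and Ltf (111019271 to 111042767, plus strand) lie on chromosome 9, with 570129 bases between Camp and Ngp and 596258 between Ngp and Ltf. Mmp8 is on the same chromosome (7558456 to 7568485, plus strand). S100a8 (90668978 to 90670035, plus strand) and S100a9 (90692632 to 90695721, minus strand) are 22596 bases apart on chromosome 3. Elane is on chromosome 10 (79886247 to 79888215, plus strand), Mpo on chromosome 11 (87793581 to 87804413, plus strand), Lcn2 on chromosome 2 (32384633 to 32388252, minus strand) and Retnlg on chromosome 16 (48872621 to 48874496, plus strand).

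C/EBP factors and PU.1 are transcription factors of the granulocyte lineage. Their letters were looked for in the 250 bases before the RefSeq start of each gene, on both strands, as TTNNGCAA for a loose form of the C/EBP site and GAGGAA for the core of the PU.1 site. On the same strand, copies of each motif cannot overlap. TTNNGCAA was found in the promoters of 6 of the 10 genes (Ngp, Ltf, Lcn2, Mmp8, S100a9 and Retnlg) and in 9.56% of 32851 mouse promoters. GAGGAA was found in 6 of the 10 (Mpo, Elane, Ltf, Lcn2, Mmp8 and S100a8) and in 23.3% of all promoters. These matches describe letters and show neither binding nor control. The promoter stretches are printed for the 5 of these 6 genes that have TTNNGCAA before the GENCODE start, so that the letters can be seen in their setting. Lcn2 has no bases of the window before that start. The stretches are shown 5′ to 3′ on the strand of the gene (RefSeq sequence, GRCm38.p6), with the match on either strand in capitals.
Ngp: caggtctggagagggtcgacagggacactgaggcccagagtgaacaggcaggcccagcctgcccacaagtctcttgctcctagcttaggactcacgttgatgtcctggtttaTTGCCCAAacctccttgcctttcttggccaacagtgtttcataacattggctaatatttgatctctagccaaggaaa
Ltf: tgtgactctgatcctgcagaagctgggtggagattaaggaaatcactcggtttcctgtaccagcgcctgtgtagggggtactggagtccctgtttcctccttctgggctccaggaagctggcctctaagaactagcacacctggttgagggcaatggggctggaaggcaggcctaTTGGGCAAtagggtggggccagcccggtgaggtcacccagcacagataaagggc
Mmp8: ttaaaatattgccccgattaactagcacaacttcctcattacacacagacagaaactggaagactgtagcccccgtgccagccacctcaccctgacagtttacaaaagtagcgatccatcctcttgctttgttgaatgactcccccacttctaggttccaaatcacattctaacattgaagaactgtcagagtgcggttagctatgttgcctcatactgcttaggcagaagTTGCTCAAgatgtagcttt
S100a9: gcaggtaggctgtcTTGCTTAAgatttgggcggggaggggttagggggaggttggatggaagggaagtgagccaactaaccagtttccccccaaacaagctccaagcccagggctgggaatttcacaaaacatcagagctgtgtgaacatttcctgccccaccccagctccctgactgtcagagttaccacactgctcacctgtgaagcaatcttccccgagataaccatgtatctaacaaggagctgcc
Retnlg: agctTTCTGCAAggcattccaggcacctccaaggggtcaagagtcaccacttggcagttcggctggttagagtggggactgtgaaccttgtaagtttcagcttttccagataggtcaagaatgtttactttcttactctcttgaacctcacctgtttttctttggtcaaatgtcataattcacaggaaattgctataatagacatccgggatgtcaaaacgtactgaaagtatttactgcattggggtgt
The stretches are chr9:110419558-110419746 for Ngp, chr9:111019042-111019270 for Ltf, chr9:7558179-7558428 for Mmp8, chr3:90695722-90695971 for S100a9 and chr16:48872358-48872607 for Retnlg. Those of Ngp and Ltf end at the GENCODE start and so hold 189 and 229 of the 250 bases searched. Ngp had 2 matches in the 250 bases, of which 1 lies in the printed stretch. The printed match began 138 bases before the RefSeq start in Ngp, 75 in Ltf, 19 in Mmp8, 236 in S100a9 and 246 in Retnlg.

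Libraries held 13110740 to 16308175 counts, and 8007523 to 10564704 in Thy. Nfe2l2 was lower in Nrf2KO mice in 18 of 18 comparisons of genotype (log2 fold changes of -1.83 to -0.25). Some libraries stood apart for these genes. In TpB, GC01 of GC_KO was lowest of its group for 10 of 10 genes, and 6 mice had far more Ltf than the other 17. In Spl, GC05 of GC_WT was above the other 5 mice of its group for 9 of 10 genes. Results that rest on these mice are given with and without them.

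All 10 genes had their highest level in TpB. In GC_WT mice, the mean level in TpB in TPM (a share of all transcripts in the library, scaled for depth and transcript length) was 1850 ± 717.8 (SD, n = 6) for S100a9, 1040 ± 483.4 for Ngp, 1016 ± 367.1 for S100a8, 792.8 ± 785.4 for Ltf and 464.0 ± 197.7 for Camp. It was 330.0 ± 140.3 for Lcn2, 177.2 ± 80.0 for Retnlg, 99.4 ± 38.1 for Mpo, 93.7 ± 33.7 for Elane and 39.2 ± 15.5 for Mmp8. Ngp and S100a8 differed by less than their spread, as did Mpo and Elane. Spl came next for all 10, and in GC_WT mice all TpB values lay above all Spl values for 10 of 10 genes, as was so for 24.9% of the 15087 genes tested in both. Mean Spl levels in GC_WT mice ran from 97.1 ± 87.8 TPM for S100a9 to 2.02 ± 1.40 TPM for Mmp8.

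Below Spl the genes parted. Lcn2, which epithelia, liver and fat also make, had measurable levels in most tissues, with 5.08 ± 2.29 TPM in eWAT, 3.15 ± 1.09 in Liv, 2.03 ± 0.594 in Kid, 1.86 ± 0.983 in Thy and 0.570 ± 0.300 in iBAT in GC_WT mice. In Cbr it was 0.268 ± 0.241 TPM. Elane was next highest in eWAT, at 2.52 ± 1.11 TPM, which overlapped Spl. Mpo was next highest in Thy, at 0.495 ± 0.161 TPM, with no overlap with Spl. S100a9 and S100a8 were next highest in MdB, at 5.11 ± 2.39 and 4.02 ± 1.55 TPM (n = 3), with no overlap with Spl. In Thy they were 3.35 ± 2.55 and 2.29 ± 1.35 TPM, so that their means were above that of Lcn2 in both tissues (0.970 ± 0.908 TPM in MdB).

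**Figure D1:**
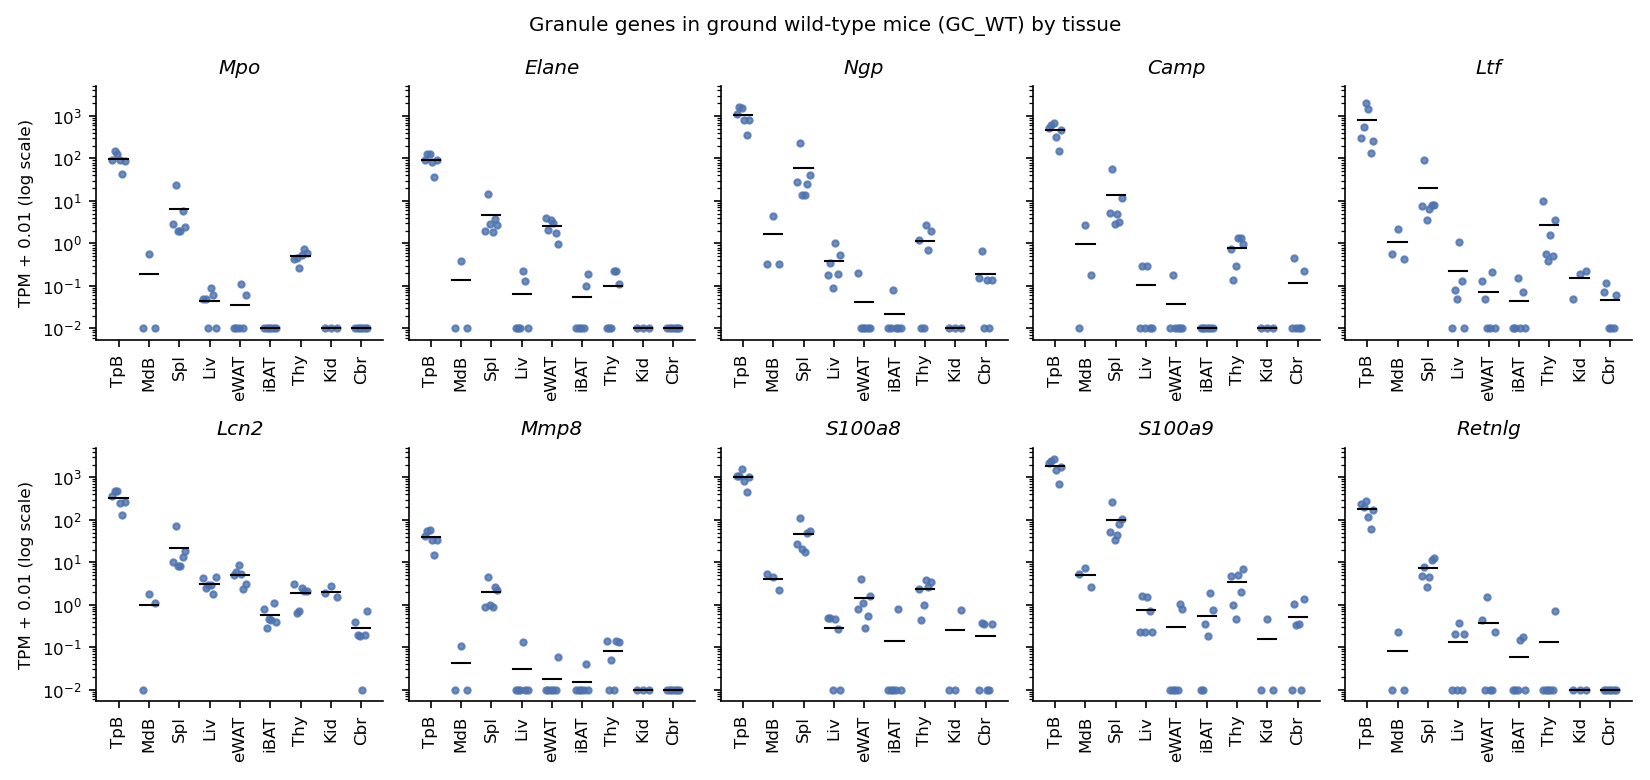
TPM + 0.01 (log axis) of the 10 genes in each of 9 tissues, for GC_WT mice, where each point is a mouse and each line the mean. For all 10 genes the TpB points lie highest and do not overlap those of Spl, while only Lcn2 is above 0 TPM in every mouse shown for most other tissues.

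Both bones are mineralised tissues, but their content of these transcripts was far apart. In the 11 mice with both, TpB was higher than MdB in 11 of 11 mice for each gene, and 10 of 10 genes were called higher in TpB (edgeR quasi-likelihood test with the mouse as a block, Benjamini-Hochberg adjusted p between 9.6e-12 and 6e-08). Of the 16549 genes tested, 38.9% were called higher in TpB. Ngp had 3 to 43 counts in MdB against 1393 to 20250 in TpB, a ratio of depth-scaled counts of 1279 (exact 95% interval 1028 to 1613, counting error only). For S100a9 the ratio was 672.1 (553.6 to 824.4) and for S100a8 it was 535.5 (420.0 to 694.0). Elane had 3 counts in all in MdB, all from GC08, giving a ratio of 2800 (957.6 to 13578). GC08 also held 11 of the 14 counts of Mpo and 43 of the 80 counts of Ngp in MdB. Marker genes differed between the bones as well. The summed level of 4 tooth genes (Amelx, Ambn, Enam and Dspp) in these 11 mice was 82610 to 201802 TPM in MdB and 0.180 to 62.8 TPM in TpB, and that of 4 globin genes 306.3 to 1538 against 28532 to 107281 TPM. The summed level of 9 B cell genes was 3.11 to 7.31 TPM in MdB and 73.8 to 183.1 TPM in TpB. The part of such differences in tissue content in these ratios was not tested.

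In MdB, counts were low and 0 of the 3 genes tested were called in any comparison. S100a8 was 2.28 to 5.24 TPM in the 3 GC_WT mice, 0.580 to 1.44 TPM in FL_WT, 0 to 0.920 TPM in GC_KO and 0.840 to 1.47 TPM in FL_KO. The GC_WT mice were thus above both the FL_WT and the GC_KO mice without overlap, as they also were for S100a9, and 3.97% and 4.46% of the 16361 genes tested had GC_WT above FL_WT or GC_KO without overlap. The log2 fold change of S100a8 was -2.03 (SE 0.59, adjusted p = 0.41, edgeR) for FL_WT and -2.94 (SE 0.67, adjusted p = 0.21) for GC_KO, each against GC_WT. Of all genes, 0% and 0.244% were called in these comparisons, 0% in FL_KO against GC_KO and 0.208% in FL_KO against FL_WT.

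In TpB, the levels of the 10 genes spread widely within each group and no comparison gave a call. Ngp was 364.2, 801.8, 809.0, 1093, 1543 and 1628 TPM in GC_WT mice and 375.9, 571.7, 874.9, 1857, 1903 and 2191 TPM in FL_WT mice. It was 157.9, 583.8, 602.6, 609.0, 674.0 and 687.9 TPM in GC_KO mice and 394.5, 594.3, 876.5, 1432 and 2484 TPM in FL_KO mice. GC_KO mice were all below the median of FL_WT, but every pair of groups overlapped. Between FL_WT and GC_WT, the log2 fold changes had a median of 0.07 (-0.17 to 0.42), and 0 of 10 genes were called, against 0% of all 18184 genes tested. Ngp had 0.10 (SE 0.53) with a 95% interval from -0.94 to 1.13.

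The largest differences in TpB were seen between the ground groups and within the Nrf2KO mice. For GC_KO against GC_WT the log2 fold changes of all 10 genes were below 0, with a median of -0.97 (-1.29 to -0.04), whereas the median of all genes was 0.01. None was called, and 0.198% of all genes were. Retnlg, at 20.8 to 107.2 TPM in GC_KO and 61.3 to 282.7 TPM in GC_WT, had the lowest value, -1.29 (SE 0.49, unadjusted p = 0.016, adjusted p = 1.0, edgeR). For FL_KO against GC_KO the median was 1.02 (-0.07 to 1.34) and 4 of 10 had an unadjusted p under 0.05, with 0 called among the 10 and 0% among all genes. Mpo was 22.9 to 68.4 TPM in GC_KO and 37.6 to 347.4 TPM in FL_KO (1.34, SE 0.54, adjusted p = 1.0). FL_KO and FL_WT were close, with a median of -0.06 (-0.34 to 0.08) and 0 of 10 called, against 0.203% of all genes. Without GC01, the median was -0.78 for GC_KO against GC_WT, with 9 of 10 below 0, and 0.83 for FL_KO against GC_KO, and 0 genes were called. These comparisons share groups, so they are not independent of each other. Between the genotypes, the flight responses (KO minus WT) differed by a median of 0.92, with 0 of 10 called and 0% of all genes.

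The TpB libraries fell into 2 sets by their library numbers, set 1 with mice 01 to 06 and set 2 with mice 07 to 12. In set 1, Ngp was 1857 to 2191 TPM in the 3 FL_WT mice and 1093 to 1628 TPM in the 3 GC_WT mice, and in set 2 it was 375.9 to 874.9 and 364.2 to 809.0 TPM. The median log2 fold change of FL_KO against FL_WT was -1.42 in set 1 and 1.42 in set 2, that is of opposite sign. For GC_KO against GC_WT it was -1.61 in set 1 and -0.16 in set 2. For FL_KO against GC_KO it was 0.39 and 1.18, and for FL_WT against GC_WT it was 0.24 and -0.29. With the set as a term in the fit, these 4 medians were 0.20, -0.87, 1.13 and 0.04. The content of other tissue also varied, since the summed level of 8 skeletal muscle genes ran from 401.9 TPM in GC01 to 30361 TPM in another GC_KO mouse. With the muscle level as a covariate, the median was -0.41 for GC_KO against GC_WT and 0.78 for FL_KO against GC_KO, again with 0 genes called.

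**Figure D2:**
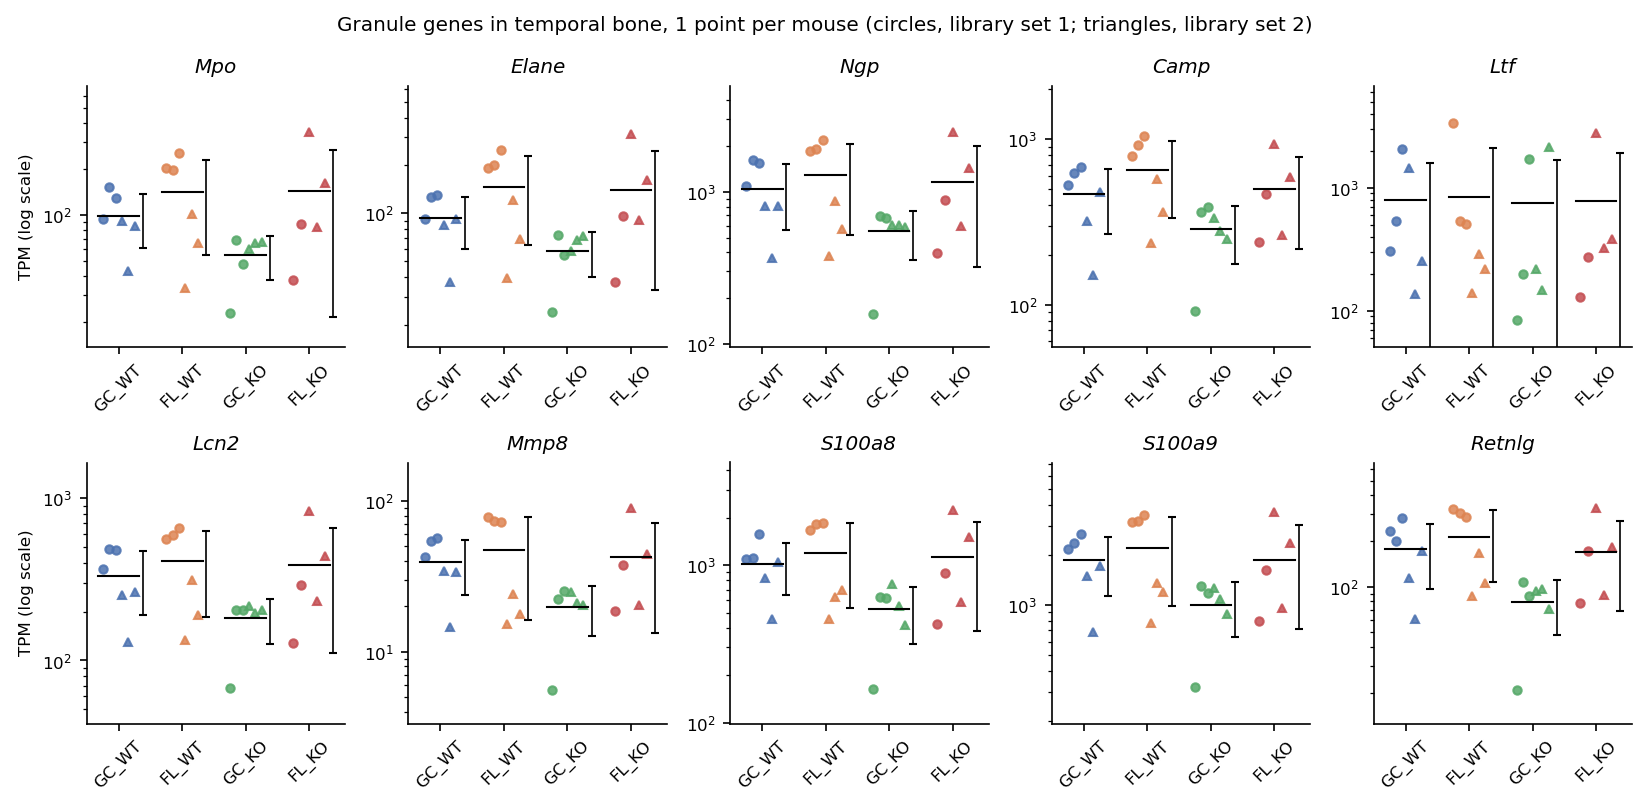
TPM (log axis) of the 10 genes in TpB by group, where each point is a mouse, the black line the group mean and the bar beside it the SD, which runs off the axis where it exceeds the mean. All pairs of groups overlap for every gene, and GC_KO mice, with GC01 lowest, span 157.9 to 687.9 TPM for Ngp.

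Other neutrophil genes in TpB gave the same counts. None of 5 tested genes of a list of other azurophil genes (among them Prtn3, proteinase 3, and Ctsg, cathepsin G), 13 other specific granule genes, 9 gelatinase and secretory granule genes and 12 tested genes of mature neutrophils was called in any comparison. Their median log2 fold changes for FL_KO against GC_KO were 1.02, 0.71, 0.79 and 0.85, and those for GC_KO against GC_WT were -0.83, -0.56, -0.72 and -0.91. The 7 transcription factors of the lineage, among them Cebpe and Gfi1, had medians of 0.06 and -0.46, and 0 were called. The same held for 5 tested cytokine, chemokine and adhesion genes (0.69 and -0.53) and 11 antiprotease genes (0.28 and -0.26).

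Within groups, the members moved together from mouse to mouse in TpB. Deviations of log2(TPM + 1) from the group means were compared with those of Ngp over 23 mice, in a family of 18 relations in TpB and Spl. Ltf fell into separate clusters of mice in TpB, described next, so that its relation with Ngp there is not given. The 8 other genes rose and fell with Ngp in TpB, with Pearson's r of 0.99 for Lcn2 and S100a9, 0.98 for Mmp8, 0.97 for Camp, and 0.96 for Mpo, Elane, S100a8 and Retnlg. Spearman's rho was 0.93 to 0.98, and the adjusted permutation p was 2e-05 for all 8, which rests on the smallest p that 100000 permutations can give. Leaving out the 2 mice farthest from the median of Ngp kept r at 0.94 or more. Within the library sets the lowest r of the 8 was 0.93 and the median 0.96. The genes were read in the same libraries, in which the summed globin level ran from 16082 to 111703 TPM and that of 4 inner ear genes from 859.9 to 3998 TPM, and the part of such tissue content in these relations was not tested. Among 13180 other genes with a mean of at least 5 TPM, those most like the mean of the 10 members were Chil3, Ms4a3, Itgb2l, F630028O10Rik, Cxcr2 and Trem3, each with r of 0.98 across the 23 mice. Chil3, a chitinase-like protein, ranged from 30.6 to 509.1 TPM.

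Ltf was set apart by 6 mice. In GC06 and GC07 of GC_WT, FL03 of FL_WT, GC04 and GC12 of GC_KO and FL09 of FL_KO, it was 1456 to 3366 TPM (median 2104), against 84.1 to 541.8 TPM (median 254.1) in the other 17. Camp was 248.8 to 930.8 TPM in these 6 and 92.1 to 1049 TPM in the others, and so overlapped. Lactoferrin is also made by glands, and genes of secretory glands were looked at after these values had been seen. Pigr, the receptor that carries immunoglobulin across epithelia, was 44.1 to 97.1 TPM in the 6 mice and 0.110 to 5.47 TPM in the 17. Muc5b, a secreted mucin, was 40.1 to 202.4 against 0.0400 to 4.44 TPM, and Aqp5, a water channel of glands, 66.2 to 197.3 against 4.88 to 17.1 TPM. Lyz1, a lysozyme, was 892.0 to 9112 against 0.990 to 19.7 TPM. The 6 mice were chosen by Ltf, so these are descriptions with no test. With the gland level as a covariate, the median of the 10 genes was -0.95 for GC_KO against GC_WT and 1.06 for FL_KO against GC_KO.

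**Figure D3:**
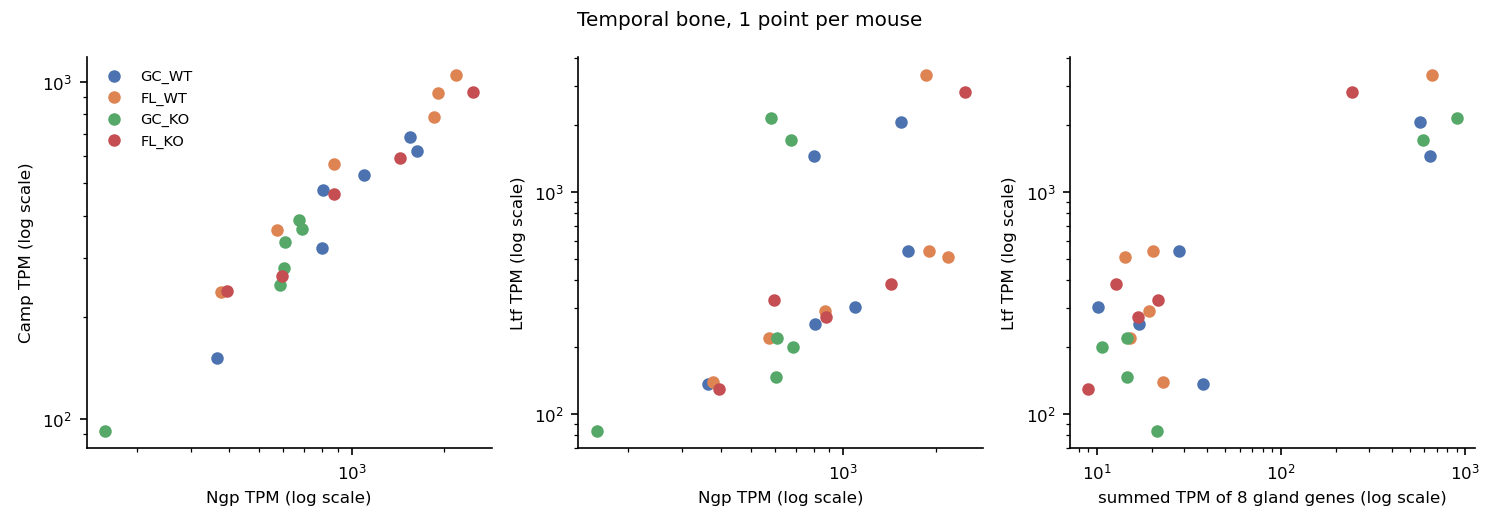
TPM (log axes) in TpB, where each point is 1 of 23 mice. The panels set Camp against Ngp, Ltf against Ngp and Ltf against the summed level of gland genes. Ngp and the gland genes are on the horizontal axes. The 6 mice with 1456 to 3366 TPM of Ltf lie apart from the other 17 for Ltf and the gland genes but not for Camp.

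In Spl, 0 of the 10 genes were called between FL_WT and GC_WT mice, and the fold changes went both ways. Ngp was 13.4, 13.4, 24.9, 27.5, 39.7 and 230.9 TPM in GC_WT mice and 7.72, 9.54, 10.4, 11.6, 16.3 and 17.5 TPM in FL_WT mice. The value of 230.9 TPM was that of GC05, and the groups overlapped. The log2 fold change was -2.29 (SE 0.62, adjusted p = 0.051, edgeR) for Ngp, -2.42 (SE 0.67, adjusted p = 0.056) for Ltf and -2.13 (SE 0.66, adjusted p = 0.088) for Camp. Mpo and Elane had -1.21 (SE 0.54) and -1.11 (SE 0.50), each with an adjusted p of 0.25, and Lcn2 had -0.85 (SE 0.49, adjusted p = 0.40). Retnlg and Mmp8 had positive values, 1.12 (SE 0.34, adjusted p = 0.079) and 0.98 (SE 0.38, adjusted p = 0.18), and S100a8 and S100a9 had 0.01 (SE 0.36) and 0.00 (SE 0.38). Thus 7 of 10 had an unadjusted p under 0.05 and 0 of 10 were called, while 2.26% of all 16170 genes tested were. DESeq2 called Ngp, Ltf and Camp lower (adjusted p = 0.0066, 0.0067 and 0.023) and Retnlg higher (0.032), with 4.29% of all genes called.

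These values rested largely on GC05. It had 90.0 TPM of Ltf against 3.53 to 8.09 TPM in the other 5 GC_WT mice, 56.7 against 2.80 to 11.8 TPM of Camp and 23.7 against 1.92 to 5.66 TPM of Mpo. Without GC05 the log2 fold change between FL_WT and GC_WT was -0.95 for Ngp (adjusted p = 0.23, edgeR), -0.80 for Ltf, -0.75 for Camp, -0.27 for Elane and -0.07 for Mpo. It was 0.08 for Lcn2, 0.48 for S100a8, 0.65 for S100a9, 1.14 for Retnlg (adjusted p = 0.11, edgeR) and 1.39 for Mmp8 (adjusted p = 0.064). The median of the 10 genes was then 0.01, and 0 were called. Ngp was called lower without FL10, GC01, GC04, GC06 or GC07 (adjusted p of 0.038 to 0.05), Ltf without GC04, GC06, GC07 or GC10 and Retnlg higher without FL10 or GC10.

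Flown Nrf2KO mice had lower values than ground Nrf2KO mice for most genes, with no call. Ngp was 33.7 to 63.9 TPM (median 42.5) in FL_KO and 52.2 to 260.5 TPM (median 78.4) in GC_KO. The log2 fold changes of 9 of 10 genes were below 0 (median -0.77), 3 with an unadjusted p under 0.05, and 0 were called, against 0.668% of all genes. Ltf, at 8.27 to 15.3 TPM in FL_KO and 16.4 to 76.5 TPM in GC_KO, was the only one of the 10 without overlap (-1.35, SE 0.63, adjusted p = 0.37), and 1.38% of all genes were lower without overlap. Retnlg again had a positive value (0.49, SE 0.36). The responses of both genotypes were not shown to differ, since 0 genes were called in the test of that difference.

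Among the flown mice, 5 of the 10 genes separated the genotypes. Ngp was 33.7 to 63.9 TPM in the 5 FL_KO mice and 7.72 to 17.5 TPM in the 6 FL_WT mice. Mpo was 7.19 to 13.8 against 1.67 to 3.60 TPM, Elane 3.47 to 8.99 against 0.870 to 3.13 TPM, Camp 11.9 to 19.6 against 1.36 to 6.02 TPM and Ltf 8.27 to 15.3 against 2.69 to 5.26 TPM. In these 5 of 10 genes, both of the azurophil granules and 3 of the specific granules, every FL_KO mouse was above every FL_WT mouse, as was the case for 0.631% of all genes tested. The log2 fold changes were 1.96 (SE 0.64) for Ngp, 1.67 (SE 0.55) for Mpo, 1.49 (SE 0.50) for Elane, 2.23 (SE 0.68) for Camp and 1.73 (SE 0.70) for Ltf. In the fit over all 4 groups, which takes its spread also from GC05, adjusted p was 0.13 to 0.33 and 0 were called, against 1.16% of all genes. In a fit of FL_KO and FL_WT alone all 5 were called higher (adjusted p = 0.00037 for Ngp and 0.048 for Elane, edgeR), as were 0.398% of all genes. They were also called without GC05 (adjusted p of 0.0039 to 0.032, edgeR), with 0.589% of all genes. GC05 is in neither group and was singled out for these same genes, so leaving it out lowers their spread by selection. Those calls are a description and not separate support. Of 30 alternatives, Camp was called in 3, and Mpo, Elane, Ngp and Ltf in 2 each. DESeq2 called only Camp among the 10 (adjusted p = 0.036), with 1.97% of all genes. S100a8, S100a9, Lcn2, Mmp8 and Retnlg overlapped, with log2 fold changes from -0.56 to 0.63. Megakaryocyte markers had higher values in Nrf2KO mice too. The summed level of 5 such genes was 187.4 to 324.6 TPM in FL_KO, with 4 of 5 mice above every FL_WT mouse (144.3 to 215.4 TPM), and 220.7 to 764.9 TPM in GC_KO against 138.9 to 296.9 TPM in GC_WT, where GC05 was the highest. None of the 5 was called in any comparison, and their part in the levels of the granule genes was not tested.

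On the ground, Nrf2KO mice had higher values for all 10 genes, with a median log2 fold change of 0.96 (0.07 to 1.20). Of these, 6 had an unadjusted p under 0.05 and 0 were called (lowest adjusted p = 0.20, for S100a8), against 1.13% of all genes. S100a8 was 50.5 to 178.4 TPM (median 88.5) in GC_KO and 17.5 to 107.9 TPM (median 38.1) in GC_WT. This comparison turned on GC05. Without it, 8 of 10 were called higher, whereas 0.632% of all genes were. These were Camp (2.58), Ngp (2.30), Ltf (2.28), Mpo (2.23), Lcn2 (1.90), Elane (1.86), S100a9 (1.54) and S100a8 (1.53), with adjusted p of 0.00041 to 0.0095 (edgeR). Mmp8 (1.11) and Retnlg (0.09) were not called. GC05 is labelled a WT mouse and nothing in the labels sets it apart. It was singled out as the high GC_WT mouse for these same genes, so leaving it out raises the difference by selection. The calls without it are therefore a description and not separate support. GC04 of GC_KO was kept, with a summed level of the specific granule genes of 503.6 TPM against 453.6 TPM in GC05.

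**Figure D4:**
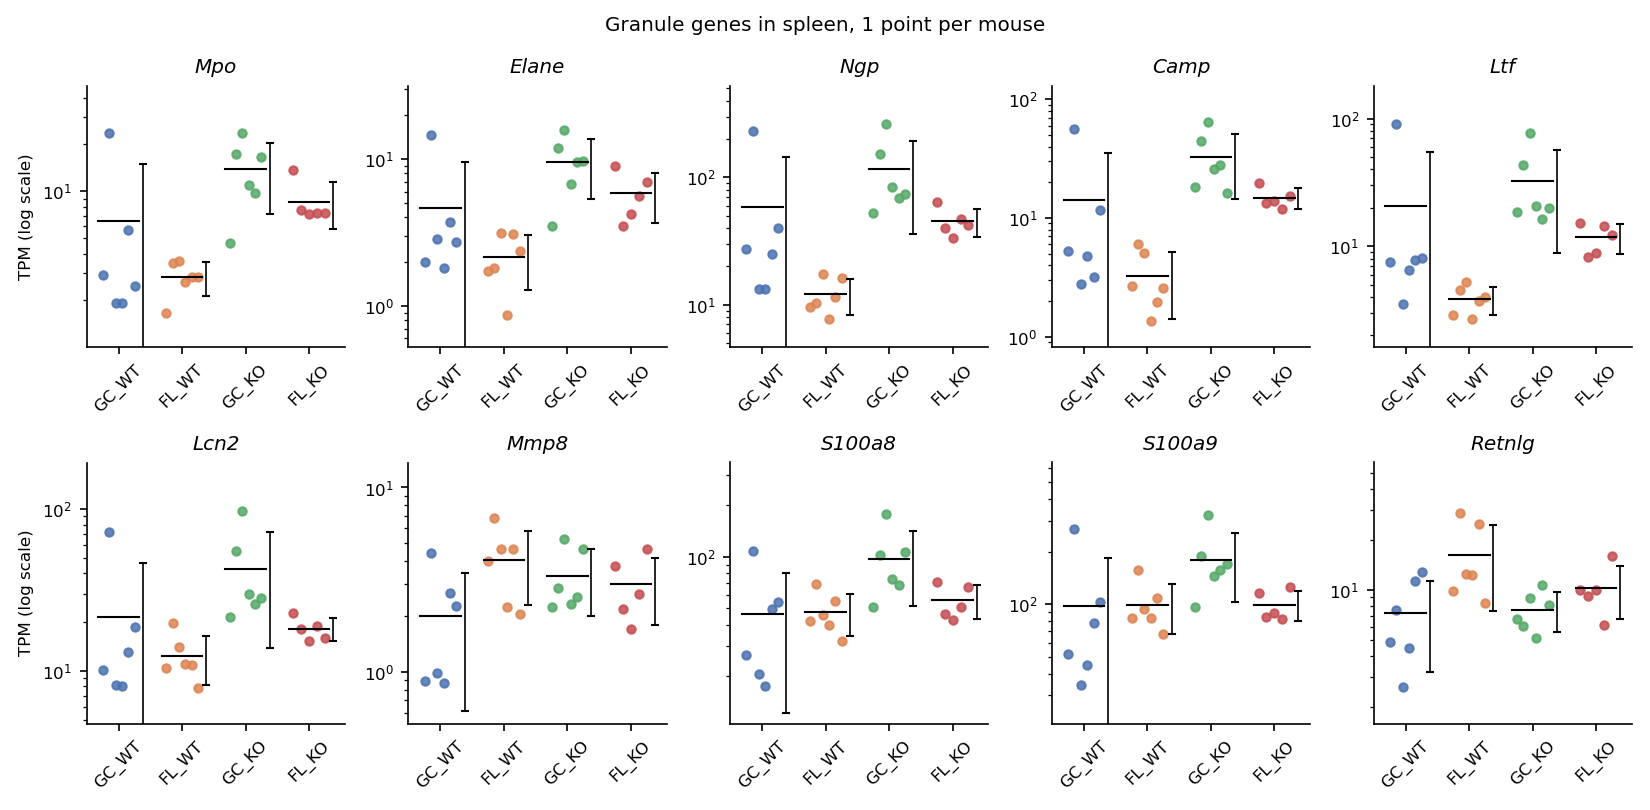
TPM (log axis) of the 10 genes in Spl by group, where each point is a mouse, the black line the group mean and the bar beside it the SD, which runs off the axis where it exceeds the mean. FL_KO mice lie above FL_WT mice without overlap for Mpo, Elane, Ngp, Camp and Ltf, and 1 GC_WT mouse, GC05, lies far above the rest of its group.

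Other neutrophil genes in Spl were called singly. Cd177, a surface protein of specific granules, was 3.14 to 9.74 TPM in GC_KO and 0.520 to 1.60 TPM in GC_WT (log2 fold change 2.41, SE 0.35, adjusted p = 0.00017, edgeR), and GC05, at 1.09 TPM, was not high for it. It was the only one called of 11 tested genes of other specific granule proteins in that comparison. Cxcr2, the chemokine receptor of mature neutrophils, was 8.74 to 12.4 TPM in FL_KO and 15.7 to 26.3 TPM in FL_WT (-0.87, SE 0.16, adjusted p = 0.0025). It was the only one called of 10 tested of the 16 genes of the mature neutrophil list in that comparison, in which the list had a median of 0.01 and overlapping sums, 149.2 to 192.8 TPM in FL_KO and 146.5 to 205.2 TPM in FL_WT. In FL_WT against GC_WT, G0s2 alone was called of this list, whose median was 0.56 and whose sum in GC_WT mice, 99.2 to 137.3 TPM, lay below that of all FL_WT mice. Of 9 gelatinase and secretory granule genes only Adam8, a membrane protease, was called, lower in flight in both genotypes (-0.26 and -0.38) and in FL_KO against FL_WT (-0.32). G0s2, Cxcl12 of the signal list and Slpi of the antiproteases were higher in FL_WT than in GC_WT by 0.38, 0.38 and 0.43. Of the other azurophil genes 3 of 6 were tested and 0 called, with medians of 1.29 for FL_KO against FL_WT and -1.07 for FL_WT against GC_WT. None of the 6 transcription factors tested and none of the 10 monocyte and macrophage genes was called.

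Erythroid genes moved in the same samples. Of 11 erythroid genes tested, 6 were called lower in FL_WT than in GC_WT and 10 lower in FL_KO than in GC_KO, and all 4 globin genes were lower in both. The summed erythroid level was 72.9 to 377.7 TPM in GC_WT, 30.1 to 60.0 TPM in FL_WT, 115.3 to 523.2 TPM in GC_KO and 38.1 to 52.2 TPM in FL_KO. Flown mice of both genotypes were thus below all ground mice, and FL_KO and FL_WT overlapped. With the erythroid level as a covariate, the log2 fold change between FL_KO and FL_WT was 1.99 for Ngp, 1.67 for Mpo, 1.50 for Elane, 2.24 for Camp and 1.74 for Ltf, against 1.96, 1.67, 1.49, 2.23 and 1.73 without it. For FL_WT against GC_WT it was -3.24 (SE 0.89) for Ngp and -3.47 (SE 0.94) for Ltf, and for FL_KO against GC_KO -2.49 (SE 1.0) and -2.72 (SE 1.07), against -1.29 and -1.35 without the covariate, with 0 of 10 called in either fit. No flown mouse overlapped a ground mouse in erythroid level, so these flight fits cannot separate that level from flight. The flight values with the covariate are thus not comparable with those without it. This covariate was added after the values had been seen, and the part of erythroid cells in the granule gene levels was not tested. The progenitor genes Myb and Kit were lower in flight in both genotypes, with log2 fold changes of -0.37 and -0.27 in WT mice and of -0.37 and -0.31 in Nrf2KO mice.

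Within groups, the genes moved together in Spl as well, in 8 of 9 relations with Ngp over 23 mice. Pearson's r was 0.95 for Ltf, 0.91 for Lcn2, 0.89 for Camp, 0.87 for Mpo, 0.85 for Elane, 0.84 for S100a9 and 0.82 for S100a8. Without the 2 farthest mice these were 0.85 for Ltf, 0.74 for Lcn2, 0.72 for Camp, 0.68 for Mpo, 0.67 for Elane, 0.62 for S100a9 and 0.64 for S100a8, and Spearman's rho over all mice was 0.64 to 0.91. Pearson's r was 0.62 for Mmp8 (rho 0.53), which fell to 0.38 without the 2 farthest mice and so rests on them. Retnlg did not follow Ngp (r = 0.21, adjusted permutation p = 0.49), unlike in TpB. The gene most like the mean of the members among 11631 was again Chil3 (r = 0.92), followed by Prg2 (0.78), a granule protein of eosinophils, Snord19 (0.75), Itga2b (0.72), of megakaryocytes, Rtn1 (0.70) and Anxa1 (0.70). GC05 and GC04 had the highest summed levels of 6 eosinophil genes, 106.0 and 106.5 TPM.

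In Liv, Lcn2 was the only one of the 10 genes tested, and it was higher in Nrf2KO mice on the ground. It was 1.76, 2.45, 2.84, 2.95, 4.32 and 4.56 TPM in GC_WT mice and 5.04, 5.73, 7.74, 8.08, 20.6 and 34.5 TPM in GC_KO mice. No GC_KO mouse was as low as a GC_WT mouse, as was the case for 0.744% of the 13433 genes tested. The log2 fold change was 2.07 (SE 0.43, adjusted p = 0.0056, edgeR), with 2.64% of all genes called, and the call was kept under 29 of 29 alternatives (1.53 to 2.23). Flown WT mice, at 5.33 to 11.2 TPM, were also above every GC_WT mouse, as were 2.32% of genes, but were not called (1.23, SE 0.43, adjusted p = 0.13, edgeR), against 3.45% of all genes. That comparison was called by DESeq2 (adjusted p = 0.047) and with only the 2 groups in the fit (adjusted p = 0.026). FL_KO mice were 7.72 to 17.8 TPM, and were called against neither GC_KO (-0.27, SE 0.40, adjusted p = 0.83, edgeR) nor FL_WT (0.57, SE 0.41, adjusted p = 0.52), comparisons in which 3.34% and 3.65% of genes were called. The difference of the flight responses was -1.50 (SE 0.59, unadjusted p = 0.019, adjusted p = 1.0, edgeR).

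Lcn2 is known as a gene of the acute phase response of the liver, the change in secreted proteins after inflammation. GC12 and GC01, with the highest Lcn2, also had the highest Saa1 (serum amyloid A), 636.8 and 337.5 TPM, against 19.3 to 114.7 TPM in the other 21 mice. Of 11 acute phase genes, 3 were called higher in GC_KO than in GC_WT (Saa1 by 2.34, Saa2 by 1.95 and Hp, haptoglobin, by 0.40). In FL_KO against GC_KO 3 were called lower (Saa2 at -3.11, Saa1 at -2.39 and Orm1 at -1.16), and in FL_WT against GC_WT 1 was called higher (Hp by 0.63). Over 23 mice, deviations of Lcn2 from the group means followed the mean of these genes (r = 0.82, adjusted permutation p = 0.0029; rho 0.68, adjusted permutation p = 0.011), with r of 0.65 without GC12 and GC01. This relation was chosen after the values had been seen. Lcn2 itself was called neither in FL_KO against GC_KO (-0.27) nor in FL_WT against GC_WT (1.23). The part of an acute phase response in its level was not tested.

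In eWAT, Lcn2 was higher in ground Nrf2KO mice than in either of the groups compared with them. It was 2.37 to 8.80 TPM in GC_WT (median 5.12), 6.39 to 18.2 TPM in FL_WT (median 9.45) and 5.08 to 8.52 TPM in FL_KO (median 6.34). In GC_KO it was 4.14, 5.14, 19.7, 30.1, 34.4 and 34.6 TPM, so that 4 of 6 mice lay above all others and 2 did not. The log2 fold change was 1.93 (SE 0.43, adjusted p = 0.016, edgeR) for GC_KO against GC_WT, where 2.74% of genes were called, and -1.71 (SE 0.45, adjusted p = 0.023) for FL_KO against GC_KO, where 7.71% were. The first was lost with only the 2 groups in the fit (adjusted p = 0.084). The second was lost there (0.064), with limma (0.084) and without FL02 (0.065), FL12 (0.054) or GC11 (0.054). FL_WT against GC_WT, with 13.4% of genes called, had 0.95 (SE 0.43, adjusted p = 0.16), which was called with the mouse number as a block (adjusted p = 0.046). The difference of the flight responses, -2.66 (SE 0.62), was not called by edgeR (adjusted p = 0.31) but was by DESeq2 (adjusted p = 0.027). None of the 8 acute phase genes tested in eWAT was called in any comparison. FL_KO against FL_WT gave no call for Lcn2, with 1.06% of all genes called. Elane, the other member tested there, was not called in any comparison, its log2 fold changes between groups running from -0.47 (SE 0.31) to 0.03 (SE 0.33).

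**Figure D5:**
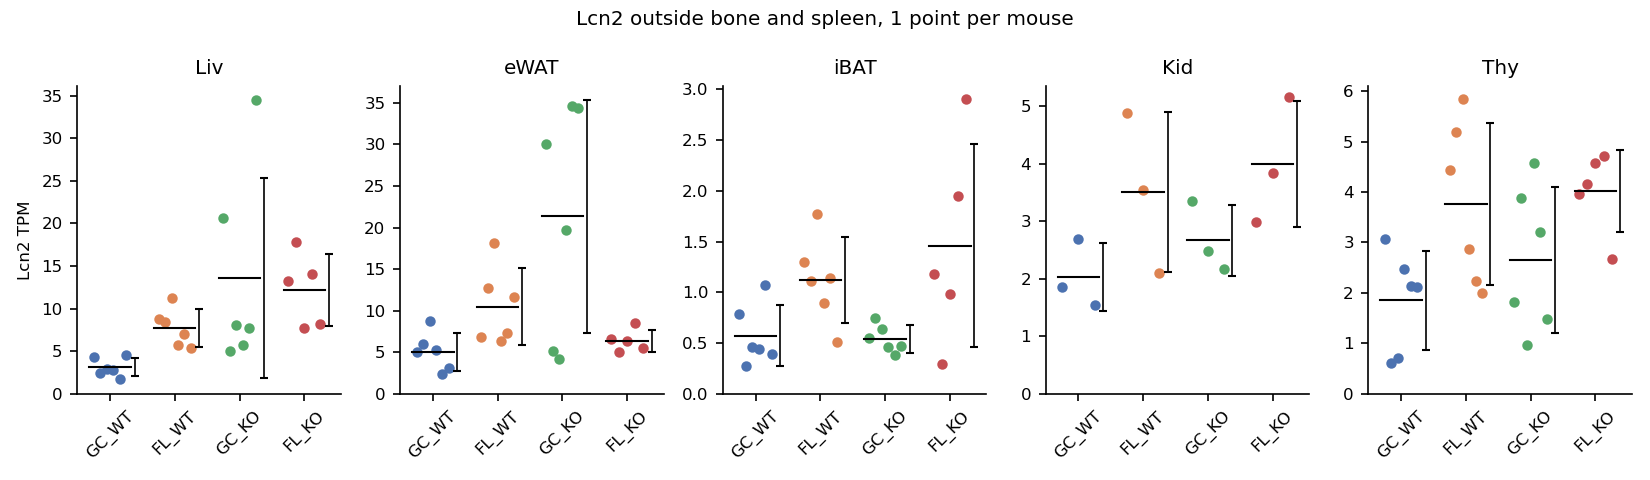
TPM of Lcn2 (linear axis from 0) by group in the tissues where it passed the filter outside bone and spleen, where each point is a mouse, the black line the mean and the bar beside it the SD. GC_KO mice are above GC_WT mice without overlap in Liv, and 4 of 6 GC_KO mice stand above all others in eWAT.

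In the other tissues Lcn2 was not called. It was 0.270 to 2.90 TPM in iBAT, where FL_KO against GC_KO had 0.93 (SE 0.41, adjusted p = 0.082, edgeR) and, without FL02, 1.18 (adjusted p = 0.019). The share of all genes called in iBAT was 33.5% in that comparison, 19.2% in FL_WT against GC_WT, 2.14% in GC_KO against GC_WT and 1.50% in FL_KO against FL_WT. In Kid it was 1.54 to 5.17 TPM, and FL_WT and FL_KO had positive values against their ground groups, 0.72 (SE 0.34) and 0.50 (SE 0.33), with an adjusted p of 0.78 and 0.56. Few genes were called in Kid, 0.119% and 0.159% in these comparisons and 1.61% and 1.83% between the genotypes on the ground and in flight.

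In Thy, Mpo was the only one called of the 6 members tested. It was 0.260 to 0.730 TPM in GC_WT (median 0.480), 0.290 to 1.58 TPM in FL_WT (median 0.885), 0.370 to 0.790 TPM in GC_KO (median 0.645) and 1.27 to 2.18 TPM in FL_KO (median 1.64). Every FL_KO mouse was above every GC_KO mouse, as in 19.4% of the 16307 genes tested. The log2 fold change was 1.17 (SE 0.30, adjusted p = 0.0034, edgeR), which was kept in 29 of 29 alternatives (1.04 to 1.27), but 38.2% of all genes were called in this comparison, so that 1 of 6 is below the background. In the same comparison 9 of 10 monocyte and macrophage genes were called higher, 7 of 8 T cell genes lower and 8 of 8 proliferation genes lower. The part of these cells in the level of Mpo was not tested. Ngp, Ltf, S100a8, S100a9 and Lcn2 were not called there, nor was any of the 6 in FL_WT against GC_WT (22.8% of all genes), GC_KO against GC_WT (3.81%) or FL_KO against FL_WT (2.64%). S100a8 came closest, with 1.43 (SE 0.43, adjusted p = 0.063) for GC_KO against GC_WT, and was called by DESeq2 (adjusted p = 0.033). Of the other neutrophil lists, Cd177 (1.93, SE 0.42) and Cxcr2 (2.39, SE 0.62) were called higher in GC_KO than in GC_WT, and Lyz2 lower (-0.37, SE 0.10). In FL_KO against FL_WT, Cd177 (1.63, SE 0.42), Hdc (0.56, SE 0.13) and Asprv1 (0.70, SE 0.19) were called higher.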

How the data were processed

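RNA was sequenced by the authors as single reads on a HiSeq2500 from strand-specific libraries of poly(A) RNA, or of rRNA-depleted total RNA in Thy, and, per the labels' processing notes, processed with bcl2fastq, STAR 2.6.1 and RSEM 1.3.1 on mm10. The strand setting of the counting is not given in the sources used here. The authors deposited expected counts without normalization (RSEM, GENCODE vM20, GRCm38), where RSEM divides a read with several possible genes among these genes. The authors also deposited the TPM values of RSEM. A further 192 columns of FPKM were not used. No 2 samples had identical counts, and 93 symbols were used more than once, so genes were followed by identifier. Coordinates came from GENCODE vM21, which held 99.9% of the identifiers, and promoter sequences from RefSeq (GRCm38.p6), in which 10 of 10 genes were matched.

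Expected counts were rounded and fitted per tissue with edgeR 4.0.16 in R 4.3.3 (filterByExpr by group, TMM factors, quasi-likelihood test, 4 groups in 1 fit without FL04). Adjustment of p followed Benjamini and Hochberg over every gene tested in the tissue, and genes with an adjusted p under 0.05 were called. As alternatives, the fits were repeated with each mouse left out in turn, with RLE factors, without the filter on counts, with FL04, with the 2 groups compared alone, with a block for the mouse number, with the TpB library set as a term, with DESeq2 1.42.0, and with limma 3.58.1 on log2(TPM + 1). Fits with the level of muscle, gland or erythroid genes as a covariate and relations across tissues were added after the values had been seen. The fit was tested on simulated data. Relations between genes were tested with 100000 two-sided permutations within groups (numpy 2.4.6). The labels give no litters or cages, and intervals of count ratios cover counting error only.

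A flown and a ground mouse with 1 number are not the same animal. Deviations of same-numbered mice from their group means correlated above 0.1 in all pairs only for Nrf2KO mice in Liv (5 of 5, 0.222 to 0.369).

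The members and gene lists were chosen with earlier results of these data known. The text names the 10 members, Nfe2l2, up to 3 called genes with the smallest adjusted p per list, tissue and comparison, and the 6 genes most like the members in TpB and in Spl. Gland genes, Saa1, Camp in the comparison of high-Ltf mice, and genes next to Elane were named after their values were seen.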

Additional observations from a re-analysis of the deposited data

Results flagged for a closer look

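In groups of 5 or 6 mice, the highest or the lowest mouse lay beyond Dixon's 95% limit in 14 of 120 groups of gene, tissue and condition. The limit was applied to log2(TPM + 1), while the values below are in TPM. Chance alone flags about 1 in 20, and genes that move together are flagged together.

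In TpB, GC01 of GC_KO was the low mouse beyond this limit for 8 genes. It had 22.9 TPM of Mpo (48.1 to 68.4 in the other 5 mice), 24.0 of Elane (54.5 to 73.2), 157.9 of Ngp (583.8 to 687.9), 92.1 of Camp (248.8 to 389.2), 67.8 of Lcn2 (197.5 to 218.1), 5.53 of Mmp8 (20.5 to 25.1), 319.4 of S100a9 (879.8 to 1303) and 20.8 of Retnlg (70.8 to 107.2). In the same library the summed muscle level was 401.9 TPM, the lowest of the 23 mice, and the summed globin level was 42586 TPM. GC08 of GC_WT had 37.2 TPM of Elane in TpB (84.3 to 130.0 in the others).

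In Spl, GC05 of GC_WT was the high mouse beyond this limit for 4 genes, with 14.5 TPM of Elane (1.80 to 3.75 in the others), 230.9 of Ngp (13.4 to 39.7), 90.0 of Ltf (3.53 to 8.09) and 71.7 of Lcn2 (8.10 to 18.7). FL01 of FL_KO had 13.8 TPM of Mpo (7.19 to 7.55 in the others).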

How the results depend on the processing

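Over the 34 pairs of gene and tissue, counts of calls were small and moved with the settings. For FL_WT against GC_WT 0 pairs were called higher, which became 2 with DESeq2, 1 with only the 2 groups, 1 with the mouse number as a block and 0 to 1 with a mouse left out, and 0 were called lower, which became 3 with DESeq2, 2 with FL04 included and 0 to 2 with a mouse left out. For FL_KO against GC_KO 1 was called higher (0 with limma, 1 to 2 with a mouse left out) and 1 lower (0 with limma or with only the 2 groups, 0 to 1 with a mouse left out). For GC_KO against GC_WT 2 were called higher, against 1 with only the 2 groups and 2 to 10 with a mouse left out, 10 being without GC05. For FL_KO against FL_WT 0 were called higher, against 1 with DESeq2, 5 with only the 2 groups and 0 to 5 with a mouse left out, 5 being without GC05. For the difference of the flight responses 0 were called lower and 1 with DESeq2. The cause was not tested. RLE factors and no filter on low counts changed none of these counts beyond 1.5 times. For 77 results of a single gene in a comparison, 2350 values were obtained under the alternatives, of which 2245 kept direction and call, 44 gained a call, 6 lost it and 55 changed sign.

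The values that changed sign were within 0.1 of 0, apart from Lcn2 in Spl and Liv. Ltf in TpB had -0.07 for FL_KO against GC_KO, against 0.23 with limma, 0.62 with the block, 0.07 with the library set as a term, 0.28 in set 2, 0.83 with the gland covariate and -1.76 to 0.71 with a mouse left out. For GC_KO against GC_WT it had -0.04, against 0.01 with only the 2 groups, 0.08 with the set as a term, 0.81 in set 2, 0.89 with the muscle covariate and -0.82 to 0.72 with a mouse left out. In Spl, FL_WT against GC_WT, S100a8 (0.01) had -0.17 with the erythroid covariate and -0.16 to 0.48 with a mouse left out, S100a9 (0.00) had 0.34 with limma, 0.28 with the block and -0.18 to 0.65, and Lcn2 (-0.85) had -1.02 to 0.08, the last without GC05. Retnlg in Spl for GC_KO against GC_WT (0.07) had -0.02 with the erythroid covariate and -0.10 to 0.29 with a mouse left out, S100a9 for FL_KO against FL_WT (0.08) had -0.03 to 0.24, and Mmp8 for FL_KO against GC_KO (-0.09) had 0.08 with FL04 included, 0.06 with the block and -0.32 to 0.08. Ngp in TpB for FL_WT against GC_WT (0.10) had -0.29 in set 2 and -0.11 to 0.34 with a mouse left out, and Lcn2 in Liv for FL_KO against GC_KO (-0.27) had 0.12 with limma and -0.48 to 0.23, the last without GC12.

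With the mouse number as a replicate block the only call that changed was that of Lcn2 in eWAT (0.95, adjusted p = 0.046, edgeR). No block was fitted in MdB and Kid or for comparisons of genotype, which share no numbers. In MdB, counts of 0 to 34 per gene and mouse limit what can be seen.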

Other observations

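In eWAT, Elane was 0.980 to 3.88 TPM in the 23 mice (median 1.88), while Mpo, which shares its granules, was 0 to 0.10 TPM. In iBAT Elane was 0 to 0.280 TPM. Elane lies on the plus strand between Prtn3, which ends 3072 bases before it, and Cfd, which starts 2637 bases after it and is on the same strand (chromosome 10, 79890853 to 79892655, GRCm38). Cfd codes for adipsin, a complement protease of fat cells, and was 7318 to 29239 TPM in eWAT and 176.2 to 2062 TPM in iBAT. Prtn3, coding for another azurophil protease, was 8.97 to 25.7 TPM in eWAT and 0 to 0.310 TPM in iBAT. Whether reads were shared in this region was not tested.

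FL04, which was left out of the groups, lay within the range of the other 5 FL_KO mice for 9 of 10 genes in TpB, 7 in Spl, 9 in Liv, 7 in eWAT, 10 in iBAT and 7 in Thy. It was above that range for 3 genes in eWAT, 1 in Spl and 1 in Liv, and below it for 3 in Thy, 2 in Spl and 1 in TpB.

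Levels in TpB and Spl were not shown to go together from mouse to mouse, though 23 mice cannot exclude a moderate relation. Across 23 mice, deviations of the mean of the 10 genes from the group means had r = 0.19 between TpB and Spl (adjusted permutation p = 0.35, rho 0.19, adjusted permutation p = 0.39), and 0.03 without GC01 and FL07. For Lcn2 in Liv and eWAT r was 0.48 (adjusted permutation p = 0.18, rho 0.39, adjusted permutation p = 0.17), and 0.30 without GC12 and GC01. These 2 relations and that of Lcn2 with the acute phase genes in Liv form a family of 3, chosen after the values had been seen.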
